A study of Mus musculus with 23 samples.

Results

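The immediate early transcription factors of the AP-1 and Egr families were followed through mouse pancreatic tumor cells in 2D and organoid culture: Fos, Fosb, Fosl1, Fosl2, Jun, Junb, Jund, Egr1, Atf3 and Ier2, 10 of the 27207 genes of the count table. They were picked by symbol with their CPM (a gene's counts relative to the library total, scaled with the TMM factors of edgeR) across the 6 groups already known. Their levels and differences are therefore given as a description, with no test. All 10 had enough counts to be among the 11144 genes entered into the fit.

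The cells were primary tumor cells of mouse pancreatic ductal adenocarcinoma (PDAC). KC cells (Ptf1a Cre/+) came from 1 mouse and KPC cells (Pdx1 Cre/+) from 1 other mouse, so that genotype and cell line cannot be told apart. The Cre is thus driven by a different pancreatic promoter in each line, and every group is of tumor cells. KC cells were grown as 2D monolayers (n = 6) and as organoids in Matrigel for 13 days (n = 3). Others grew in collagen for 7 days (n = 3) or for 13 days (n = 5 in batch 1 and n = 3 in batch 2). KPC cells were grown in collagen for 13 days (n = 3, batch 2). The culture medium was DMEM with serum. Organoids of both matrices were released with collagenase at 37 °C in medium without serum and washed before lysis, whereas 2D cells were lysed in place. For 2D against organoids the digestion and the culture form cannot be told apart. The labels number the replicates without naming separate mice or cultures, and p-values measure only the spread between these libraries.

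AP-1 is a dimer of basic leucine zipper proteins, most often of a Fos with a Jun family member, that binds DNA and turns on genes of proliferation, invasion and wound repair. Fos, Fosb, Jun, Junb, Egr1, Atf3 and Ier2 are immediate early genes, which need no new protein to be transcribed and are induced within minutes by serum, growth factors, ERK signaling or stress. Fosl1 and Fosl2 accumulate later and Jund is present in most cells. Their short-lived mRNAs also respond to the handling of tissue, including enzymatic dissociation.

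The 23 libraries held between 1221451 and 2471058 counts, the median being 1845921. The 2D libraries were of 2 kinds. Replicates 1, 2 and 3 had TMM factors of 0.738 to 0.772 and totals of 1221451 to 1382736. Replicates 4, 5 and 6 had factors of 1.04 to 1.06 and totals of 1649327 to 2091391. The factors of the other groups spanned less. With the same split, mitochondrial transcripts took 1.77 to 2.16% of the counts in replicates 1 to 3 and 0.953 to 1.32% in replicates 4 to 6. The summed fibroblast markers stood at 148 to 209 and 67.3 to 89.9 CPM and the summed epithelial markers at 7141 to 7327 and 9693 to 10289 CPM. Their part in the members' levels was not tested. Of the 10 epithelial and ductal markers 9 were at 20 CPM or more on average, while 5 of the 6 immune markers in the table, all 6 endothelial markers, 4 of 5 acinar markers and the 1 endocrine marker in the table never passed 3 counts. The exception among the immune markers was Cd68, a lysosomal protein, which took the summed immune level to 30.5 to 36.8 CPM in Matrigel and 12.4 to 21.9 CPM in collagen at day 13 of batch 1. Among the acinar markers the exception was Cela1, at 10.2 CPM on average. Of 10 fibroblast markers, Thy1 was at 0 and Lum and Postn at 3 counts or fewer. Col1a1 (1.68 CPM on average) and Pdgfra (0.469 CPM) were low. Others were expressed, with Col1a2 at 40.5 and Col3a1 at 21.5 CPM on average. Dcn (9.76 CPM), Acta2 (9.29 CPM) and Pdgfrb (2.21 CPM) had counts in all 23 libraries. The summed level of the list was 54.8 to 112 CPM in collagen at day 13 of batch 1, 63.7 to 96.2 CPM in Matrigel and 67.3 to 209 CPM in 2D.

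Most of the members are compact genes, a feature that the choice by symbol did not use. In GENCODE M21 on GRCm38, their median gene span was 4698.5 bases against 24408.5 for the tested genes with an entry, and 8 of 10 spanned less than 10 kb against 23.4%. The exceptions were Fosl2, with 22042 bases, and Atf3, with 47744, which is longer than the median of the tested genes. Jun, Junb, Jund and Ier2 have a single exon, a structure of 1.96% of the tested genes. The heptamer TATTTAT, an AU-rich element known from short-lived mRNAs, stood in the 3' UTR of 7 of 10 members and of 28.8% of the tested genes. The 4 stretches below, of the members with the widest range of levels and of Jun, show it in capitals, with the mRNA strand given as DNA:
Fos: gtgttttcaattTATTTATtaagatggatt
Fosb: cccacccccagcTATTTATccctttcctgg
Jun: tttgcttgtgcaTATTTATaatagcgttcg
Atf3: gaaaatattactTATTTATcccagtattcc
The Fos stretch covers bases 644 to 673 of a 3' UTR of 815 bases, and the Atf3 stretch bases 1115 to 1144 of 1186. Egr1, Junb and Ier2 held no such heptamer, and their levels are described below with the others.

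Promoter sequences were taken from RefSeq (GRCm38.p6), whose table held 7 of the 10 members. The windows searched were the 250 bases before the start. TGACG on either strand, the core of the cAMP response element that ATF and CREB proteins bind, stood in the windows of Fos, Fosb, Junb and Atf3, thus in 4 of 7, and in 17.8% of all 32851 windows. The longer TGACNTCA stood in that of Jun alone among the 7 and in 7.49% of all. The AP-1 site TGANTCA and the CArG box, the binding site of serum response factor, were in none of these 7 windows and in 6.75% and 1.47% of all. Sites outside these 250 bases were not searched, so the genes may hold such sites elsewhere. The Egr site GCGNGGGCG was in those of Fosb and Fosl2 and in 4.70%. The 120 bases upstream of the start are shown for Fos, Fosb and Atf3, the members with the widest ratios of group means, and for Jun, on the strand of the gene, with matches in capitals (TGACG or its reverse complement CGTCA, TGACNTCA, and in Fos the TATA box TATAAA, a match of 7.59% of all windows):
Fos: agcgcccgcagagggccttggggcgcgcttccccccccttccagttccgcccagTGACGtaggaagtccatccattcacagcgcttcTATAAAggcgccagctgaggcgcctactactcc
Fosb: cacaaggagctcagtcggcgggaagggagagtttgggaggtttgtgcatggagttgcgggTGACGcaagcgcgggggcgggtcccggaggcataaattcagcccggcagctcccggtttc
Jun: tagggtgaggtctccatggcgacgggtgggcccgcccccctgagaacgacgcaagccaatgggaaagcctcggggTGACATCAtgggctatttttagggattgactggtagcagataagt
Atf3: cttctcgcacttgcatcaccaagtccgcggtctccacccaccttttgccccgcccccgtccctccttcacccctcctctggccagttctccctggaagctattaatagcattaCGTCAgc
They lie at chr12:85473770-85473889 on the plus strand (Fos) and at chr7:19310046-19310165 (Fosb), chr4:95052223-95052342 (Jun) and chr1:191183334-191183453 (Atf3) on the minus strand. The Atf3 window lies inside the span of the annotated gene. So does the Fosl2 window, which ends at chr5:32136471 in a gene that starts at 32135801. The Jund window ends at chr8:70697738, ahead of the annotated gene start at 70698949. The match to the Egr site in Fosb is left in lower case.

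Fos, the founding member of its family, was highest in collagen. In collagen at day 13 it stood at 681, 758, 690.2, 784 and 657 CPM in batch 1 and at 1452, 1134 and 1363 CPM in batch 2. In Matrigel it stood at 125, 104 and 129.8 CPM and in 2D from 76.9 to 238 CPM with a median of 163. It stood in collagen at day 7 at 288, 501 and 499.6 CPM and in KPC organoids at 647, 663 and 611 CPM. The group means ran from 119 ± 13.9 CPM (SD) in Matrigel over 163 ± 72.3 CPM, 429.5 ± 123 CPM in collagen at day 7 and 640.5 ± 26.4 CPM in KPC to 714 ± 54.2 CPM and 1316 ± 164 CPM in KC collagen at day 13. Only 2 neighbours in this order overlapped: Matrigel with 2D, and KPC with KC of batch 1.

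Fosb, a close relative of Fos, was likewise lowest in Matrigel and 2D. It stood at 12.5, 8.67 and 9.27 CPM in Matrigel and in 2D from 5.25 to 25.5 CPM with a median of 16.04, against 76.0, 70.5, 70.4, 91.7 and 64.2 CPM and 115, 109 and 125 CPM in KC collagen at day 13 of batches 1 and 2. Collagen organoids of day 7 were spread widely, at 45.8, 97.4 and 139 CPM, and KPC organoids stood at 92.7, 88.0 and 67.7 CPM. Every collagen library was above every library of 2D and Matrigel, the lowest being the first of day 7 at 45.8 CPM and the highest in 2D at 25.5 CPM.

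Fosl1 (Fra-1), a late member of the family associated with invasive tumor cells, had its own order. It was highest in collagen at day 7, at 118, 146 and 179 CPM, then in KPC organoids, at 119.95, 112 and 105 CPM. KC organoids of day 13 stood at 45.2, 43.9, 42.8, 51.2 and 52.2 CPM in batch 1 and 74.4, 84.6 and 69.6 CPM in batch 2, Matrigel organoids at 59.4, 52.4 and 32.4 CPM and 2D cells from 46.2 to 69.4 CPM with a median of 62.4. Day 7 and KPC overlapped, while both lay above every library of the other 4 groups. Fosl2 (Fra-2) instead was highest in KC collagen at day 13 of batch 2, at 109, 105 and 72.9 CPM, and lowest at day 7, at 27.8, 28.5 and 31.4 CPM, which overlapped 2D cells (29.6 ± 4.16 CPM). Between them stood Matrigel (37.5 ± 1.11 CPM), KC of batch 1 (50.8 ± 6.12 CPM) and KPC (54.4 ± 2.58 CPM), the last 2 overlapping.

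Of the Jun proteins, which pair with Fos proteins or with each other, Jun was lowest in 2D, from 36.3 to 110.0 CPM with a median of 65.2, and in Matrigel, at 86.8, 77.1 and 75.3 CPM, and these groups overlapped. It stood at 118, 121, 125, 129 and 90.3 CPM in KC collagen at day 13 of batch 1, at 278, 254 and 267 CPM in batch 2, at 83.8, 135 and 154 CPM at day 7 and at 201, 175 and 173 CPM in KPC. Batch 2 of KC and KPC were the only groups with every library above all of batch 1.
Junb, a partner that weakens some responses to Jun, was lowest in 2D, from 269 to 394 CPM with a median of 325. No 2D library reached any organoid library. It stood at 572, 593 and 645 CPM in Matrigel and 524, 644 and 672 CPM at day 7. It stood at 914, 942, 974, 851 and 845 CPM and 1085, 1065 and 929 CPM in KC collagen at day 13 of batches 1 and 2 and 799.7, 689.5 and 725 CPM in KPC. Matrigel and day 7 overlapped, as did the 2 KC batches. Jund had the narrowest range of group means, from 276 ± 15.8 CPM at day 7 over Matrigel (312 ± 14.3 CPM), 2D (325 ± 47.0 CPM), KPC (376 ± 8.11 CPM) and KC of batch 1 (485 ± 30.5 CPM) to 575 ± 35.9 CPM in KC of batch 2, a ratio of 2.08.

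Egr1, a zinc finger factor and a direct output of ERK and serum response factor, stood at 45.0, 37.7 and 35.3 CPM in Matrigel, from 43.4 to 84.8 CPM with a median of 69.2 in 2D and 85.3, 129.8 and 113 CPM at day 7. It stood at 154, 157 and 142 CPM in KPC and at 294, 304, 304, 227 and 219 CPM and 341, 293 and 352 CPM in KC collagen at day 13 of batches 1 and 2. The 8 KC libraries of day 13 in collagen were above all 15 others. Atf3, a bZIP factor of the stress response that dimerizes with Jun proteins, had the widest ratio of group means, 14.4, from 10.9, 12.1 and 6.95 CPM in Matrigel to 167, 129.7 and 136 CPM in KC collagen at day 13 of batch 2. Batch 1 of the same culture stood at 38.7, 51.0, 40.9, 69.0 and 40.7 CPM, KPC at 50.8, 42.2 and 47.2 CPM, day 7 at 18.0, 33.5 and 40.7 CPM and 2D from 11.5 to 38.6 CPM with a median of 21.6. Ier2, an early response gene that codes for a nuclear protein, was the only member highest in batch 1, at 630.4, 685, 711, 487 and 504 CPM. Batch 2, at 586, 555 and 539 CPM, overlapped it. It stood at 444, 361 and 357 CPM in KPC, 285, 319.6 and 320.3 CPM at day 7, 177, 198 and 212 CPM in Matrigel and from 159.9 to 258 CPM with a median of 209 in 2D, the last 2 overlapping.

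**Figure D1:**
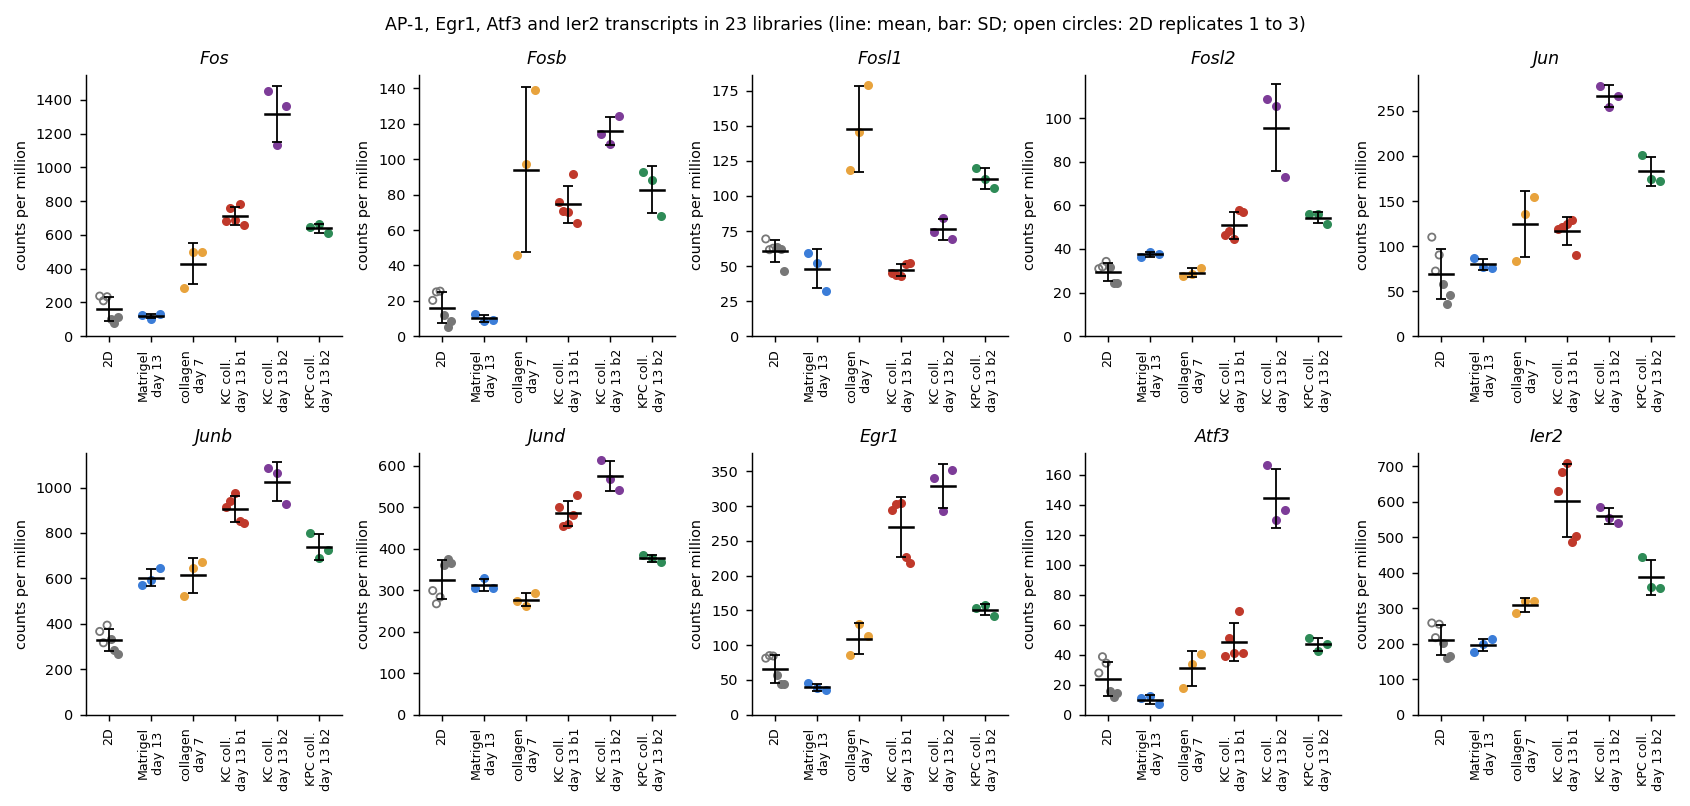
CPM of the 10 members (vertical axis, linear from 0, own scale in each panel) in the 6 groups, with 1 point a library, a line at the group mean and a bar of 1 SD; open circles mark 2D replicates 1 to 3, and b1 and b2 are batches 1 and 2. KC collagen organoids of day 13 in batch 2 have the highest mean in 8 panels, the exceptions being Fosl1 and Ier2, and Matrigel organoids have the lowest mean in 5.

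Against KC collagen organoids of day 13 in batch 1, which served as the reference for 3 comparisons and for the comparison of batches, 2D cells had 8 members lower and 0 higher without overlap between the groups, beside 10.4% lower and 9.97% higher among all genes tested. Because the members were chosen on these levels, nothing is read from these shares here or in the comparisons below. The median log2 difference of the 10 was -1.31 beside 0.01 for all tested genes. Fosb (-2.37 ± 0.28, SE derived from the F statistic of the fit), Fos (-2.16 ± 0.22) and Egr1 (-2.08 ± 0.16) differed most. Ier2 (-1.54 ± 0.13), Junb (-1.47 ± 0.10), Atf3 (-1.15 ± 0.25), Fosl2 (-0.80 ± 0.12) and Jund (-0.57 ± 0.09) followed. Jun (-0.81 ± 0.19) and Fosl1 (0.37 ± 0.14) overlapped. The median was -1.04 with 2D replicates 1, 2 and 3 alone and -1.73 with 4, 5 and 6 alone. With the first and the second kind alone, the log2 difference was -1.65 and -2.90 for Fos, -1.65 and -3.14 for Fosb, -1.69 and -2.51 for Egr1 and -1.31 and -1.82 for Ier2. It was -0.37 and -1.35 for Jun and -0.52 and -1.83 for Atf3, and -0.78 and -0.44 for Jund. With TMM scaling the first kind was closer to collagen in these members, Jund excepted. Scaled by library size alone, Jun and Ier2 overlapped between the kinds.

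Matrigel organoids, which were digested with collagenase like the collagen organoids, had 9 members lower and 0 higher without overlap, beside 10.1% and 9.41% of all genes tested. The median log2 difference was -1.13 beside -0.01 for all genes. Fosb (-2.86 ± 0.35), Egr1 (-2.77 ± 0.21), Fos (-2.58 ± 0.28) and Atf3 (-2.23 ± 0.33) were 4.80 to 7.35 times lower in Matrigel by their means. Ier2 (-1.63 ± 0.16) was 3.08 times lower, and Jund, Junb, Jun and Fosl2 were between -0.63 and -0.44. Fosl1 overlapped between the matrices (0.05 ± 0.16).
Set against 2D cells, Matrigel organoids overlapped in 8 members and were higher without overlap in Junb (0.89 ± 0.12) and Fosl2 (0.36 ± 0.15). The share over all genes was not counted for this comparison, and no likeness of the groups is read from the overlap.

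Collagen organoids of day 7 had 6 members lower and 1 higher than those of day 13 in batch 1 without overlap, beside 22.9% and 25.4% of all genes tested, with a median of -0.68 beside 0.01 for all genes. Egr1 (-1.30 ± 0.19) and Ier2 (-0.97 ± 0.16) were furthest below, Jund, Fosl2, Fos and Junb lay between -0.81 and -0.56, and Fosl1 was 3.14 times higher at day 7 by its means (1.65 ± 0.15). Fosb (0.34 ± 0.26), Jun (0.10 ± 0.22) and Atf3 (-0.63 ± 0.27) overlapped. Replicate 1 of day 7 was the lowest of its group in Fos, Fosb, Fosl1, Fosl2, Jun, Junb, Egr1, Atf3 and Ier2.

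KPC organoids were set against KC organoids of the same batch. They had 9 members lower and 1 higher without overlap, beside 18.5% and 18.9% of all genes tested, with a median of -0.58 beside 0.01 for all genes. Atf3 (-1.63 ± 0.29), Egr1 (-1.12 ± 0.21) and Fos (-1.04 ± 0.28) were lowest relative to KC, the other 6 lay between -0.81 and -0.48, and Fosl1 was higher (0.56 ± 0.18). Against KC organoids of batch 1 instead, where line and batch cannot be told apart, 4 were lower, 2 higher and 4 overlapped, with Jun at 0.65 ± 0.22 (0.091 against the KC libraries of both batches together), Fos at -0.16 ± 0.25 and Fosl1 at 1.25 ± 0.15. For this pair of groups the share over all genes was not counted, and nothing is read from the counts.

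The KC collagen culture of day 13 was present in both batches. Batch 2 had 7 members higher and 0 lower without overlap, beside 18.1% and 17.9% of all genes tested, with a median of 0.66 beside -0.05 for all genes. Atf3 (1.58 ± 0.24) and Jun (1.19 ± 0.21) differed most, ahead of Fosl2 (0.91 ± 0.13), Fos (0.88 ± 0.24), Fosl1 (0.69 ± 0.16), Fosb (0.63 ± 0.26) and Jund (0.25 ± 0.11). Egr1 (0.29 ± 0.18), Junb (0.18 ± 0.12) and Ier2 (-0.11 ± 0.15) overlapped.

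**Figure D2:**
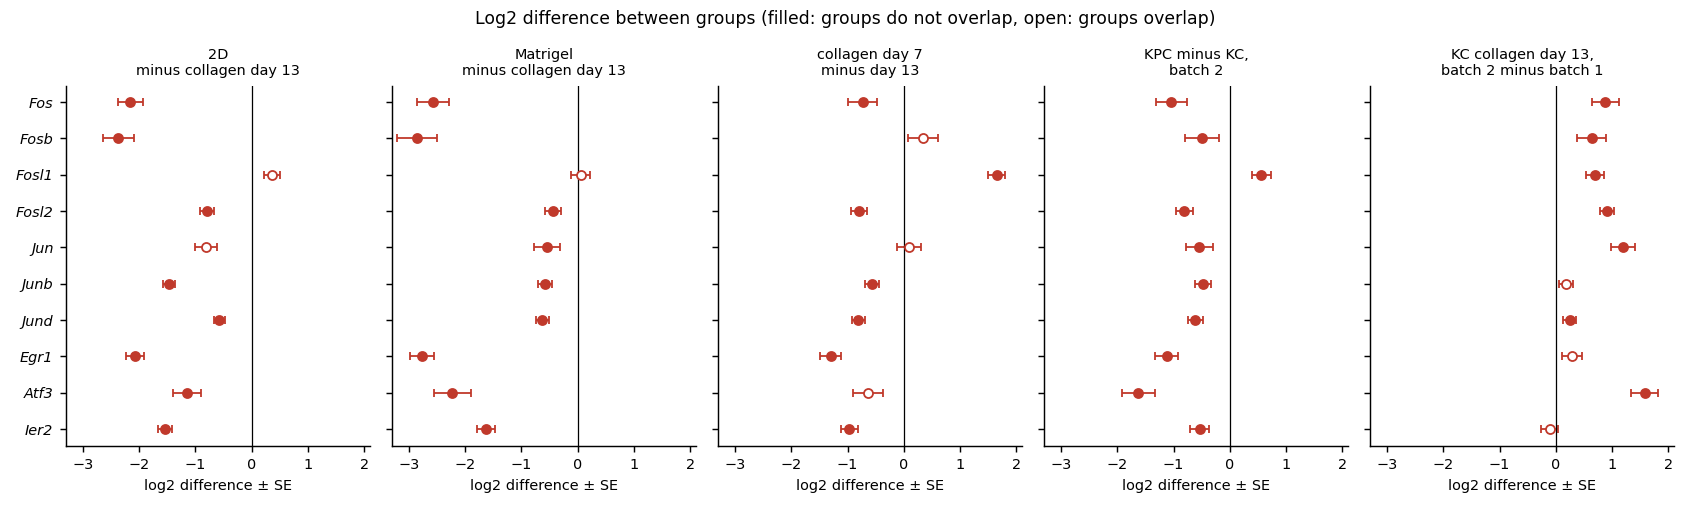
Log2 difference of each member (horizontal axis) in 5 comparisons, the first group minus the second, with bars of 1 SE from the edgeR fit; filled points mark groups that do not overlap and open points groups that do. Fosl1 is the only member on the positive side in the comparisons of 2D with collagen and of KPC with KC, and 9 of 10 members lie on the positive side for batch 2 against batch 1.

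Within groups, most members varied together, as did many other genes. After subtracting each group's mean log2 CPM, Fos correlated over the 23 libraries with Fosb (r = 0.91), Jun (0.90), Atf3 (0.84) and Egr1 (0.83), and less with Fosl2 (0.44) and Fosl1 (0.22). Over all libraries Jund ran the other way (r = -0.74 with Fos and -0.78 with Egr1). Of the 45 pairs, 37 had r above 0, with a median of 0.52. Such values were not particular to the members. Among 6578 other tested genes, an r with Fos of 0.845 (Id3) ranked 94, 0.813 (Dusp1) ranked 232 and 0.522 (Zfp36) ranked 1260. The points of each correlation share library, depth and scaling factor, and the 2 kinds of 2D library weighed in them. Replicates 1, 2 and 3 of 2D had 2.74 times as much Fosb, 2.42 times as much Atf3 and 2.31 times as much Fos as replicates 4, 5 and 6 by their means. They had 0.773 times as much Jund. Fos, Fosb, Jun, Egr1, Atf3 and Ier2 did not overlap between the 2 kinds and were higher in replicates 1 to 3, Jund did not overlap and was lower, and Fosl1, Fosl2 and Junb overlapped. This depends on the TMM factors, which themselves separate the kinds. Scaled by library size alone, Fos, Fosb, Egr1 and Atf3 were higher without overlap, Jund and Fosl2 lower, and 4 members overlapped. Among those were Jun, from 55.8 to 84.3 against 38.5 to 61.2 CPM on that scale, and Ier2, from 167 to 198 against 169.8 to 211 CPM. The share of all tested genes without overlap between the kinds was not counted, so nothing is read from these counts about the members. Without the 2D libraries, an alternative chosen after the data had been seen, the median r over 17 libraries was 0.36, with 37 of 45 pairs above 0 but not the same pairs. Jund then had r of -0.11 with Fos, -0.38 with Egr1 and 0.07 with Fosb, and r of 0.65 with Fosl2 against -0.15 over all libraries. In bulk RNA a smaller share of cells that express a gene and less RNA per cell cannot be told apart.

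**Figure D3:**
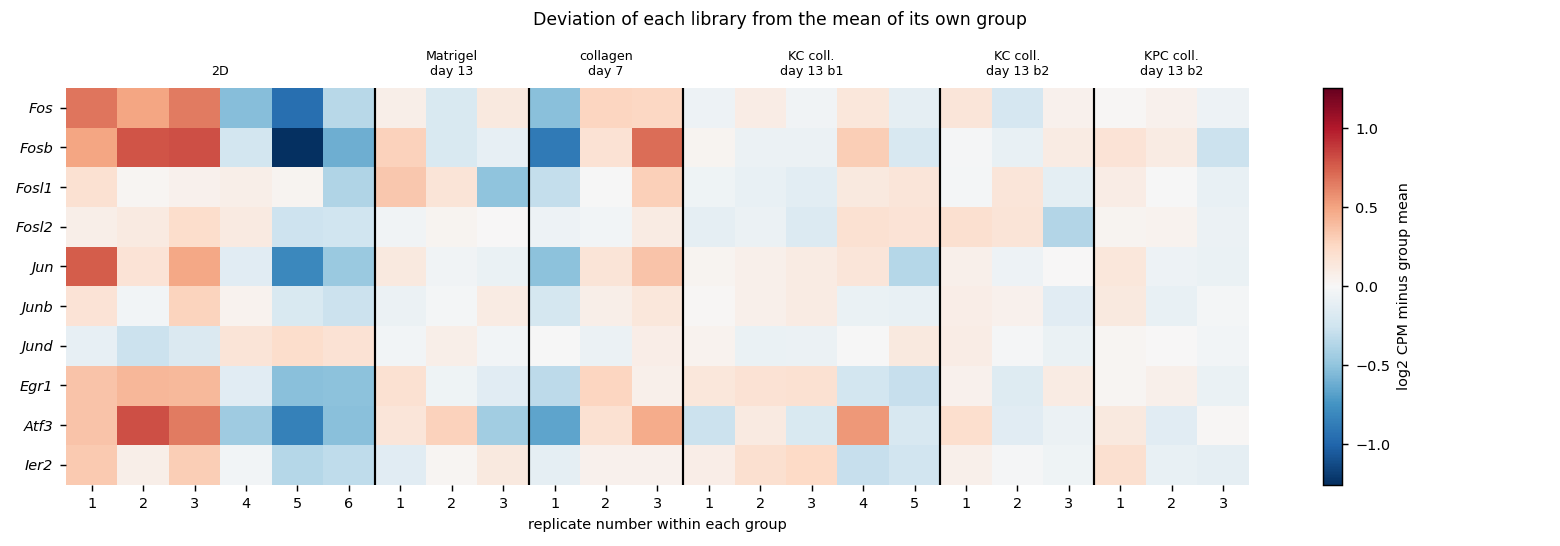
Deviation of each library (columns, by group and replicate number) from its group's mean log2 CPM for each member (rows), red above and blue below the mean. The first 3 libraries of 2D are above their mean and the last 3 below it for Fos, Fosb, Jun, Egr1, Atf3 and Ier2, and the reverse for Jund, with TMM scaling; by library size alone Jun and Ier2 overlap between the 2 kinds.

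The genes outside the list whose log2 CPM was most like that of Fos over the 23 libraries were taken from the 6578 tested genes with at least 20 CPM on average. They were Id3 (r = 0.953), Zfp36 (0.946), Dusp1 (0.939), Id1 (0.924) and Mgst3 (0.918). Next came Socs3 (0.897), Dnajb1 (0.890), Mettl7a1 (0.889), Hbegf (0.885) and Klf4 (0.877). Zfp36, which codes for an AU-rich element binding protein that destabilizes mRNA, stood at 39.8 ± 1.27 CPM in Matrigel, 46.6 ± 8.38 CPM in 2D, 70.5 ± 19.3 CPM at day 7, 154 ± 6.67 CPM in KPC and 172 ± 34.0 CPM and 281 ± 43.1 CPM in KC collagen at day 13 of batches 1 and 2. Dusp1, a phosphatase of MAP kinases, stood at 48.7 ± 1.01 CPM in Matrigel, 46.8 ± 19.2 CPM in 2D and 204 ± 24.3 CPM in KC collagen at day 13 of batch 1. By deviations from the group means the 10 genes most like Fos were Snhg1 (0.939), Mrpl13, 2310010J17Rik, Srp19, Smim8, Atf4, Malsu1, Rpain, Nip7 and Pex7, none of which was among the first 10. Without the 2D libraries none of those remained among the 10 nearest, and Nr4a1, an immediate early nuclear receptor, came first (r = 0.86 over 17 libraries).

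Other genes of the same response were described with the quasi-likelihood F-test of edgeR, with a call at a Benjamini-Hochberg adjusted p under 0.1. These lists were chosen with earlier results of these data known, so the calls and shares are a description and no independent test. Of 59 other immediate early genes 53 were tested. In 2D against collagen at day 13, 9 were called higher and 23 lower, beside 26.3% and 23.3% of all genes, with a median log2 fold change of -0.29. Dusp1 (-2.19 ± 0.17, adjusted p = 4.14e-10), the antiproliferative gene Btg2 (-2.14 ± 0.09, adjusted p = 1.06e-14) and Zfp36 (-1.91 ± 0.15, adjusted p = 3.57e-10) were furthest below. Ccn2, a target of YAP and TGF-beta (2.75 ± 0.19, adjusted p = 4.72e-11), the stress gene Gadd45a (1.14 ± 0.24) and the factor Cebpd (0.79 ± 0.13) were furthest above. Gadd45a was at 1.68 with 2D replicates 1 to 3 alone and 0.38 with 4 to 6 alone. In Matrigel, 9 were called higher and 14 lower, beside 6.62% and 6.29%, with a median of -0.06. Zfp36 (-2.12 ± 0.19, adjusted p = 1.74e-08), Dusp1 (-2.06 ± 0.21) and Nr4a1 (-1.74 ± 0.28) were furthest below and Ccn2 (1.97 ± 0.21), Cebpd (1.16 ± 0.15) and Tnfaip3, an inhibitor of NF-kB (1.07 ± 0.22), furthest above.

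Of these 53 at day 7 against day 13, 18 were called higher and 19 lower, beside 28.1% and 27.1% of all genes, with a median of 0.06. Btg2 (-2.04 ± 0.12, adjusted p = 5.04e-13), Zfp36l1 (-1.66 ± 0.13) and Zfp36 (-1.28 ± 0.17) were lower at day 7. Ptgs2, the inducible cyclooxygenase (2.28 ± 0.35, adjusted p = 7.00e-06), Odc1, an enzyme of polyamine synthesis (1.75 ± 0.18), and the kinase Sgk1 (1.70 ± 0.20) were higher. In KPC against KC of batch 2, 3 were called higher and 20 lower (5 and 13 scaled by library size alone), beside 9.57% and 10.4%, with a median of -0.23. Klf2 (-2.31 ± 0.22, adjusted p = 2.69e-08), Plk3 (-1.16 ± 0.21) and the EGF receptor ligand Hbegf (-1.07 ± 0.17) were lowest in KPC relative to KC. Ccn2 (1.26 ± 0.32) and Ccn1 (0.84 ± 0.18) were higher. Against the KC libraries of both batches, Klf2 was at -1.68, Ccn2 at 0.67 and Ccn1 at 1.64, and Hbegf was not called (adjusted p = 0.136 by edgeR). In batch 2 against batch 1, 23 were called higher and 9 lower, beside 19.3% and 18.1%, with a median of 0.38. Ccn1 (1.54 ± 0.18), Klf6 (1.27 ± 0.14) and Klf2 (1.17 ± 0.17) were furthest above and Gadd45a (-1.11 ± 0.33), Myc (-1.06 ± 0.16) and Plk2 (-0.89 ± 0.23) furthest below.

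Of 25 other bZIP genes, whose proteins can pair with Fos, Jun or ATF proteins, 19 were tested. In the 5 comparisons in the order above, 6, 3, 4, 1 and 8 were called higher and 3, 0, 3, 3 and 1 lower. These were 31.6, 15.8, 21.1, 5.26 and 42.1% called higher and 15.8, 0, 15.8, 15.8 and 5.26% lower. Of all tested genes, 26.3, 6.62, 28.1, 9.57 and 19.3% were called higher and 23.3, 6.29, 27.1, 10.4 and 18.1% lower. Scaled by library size alone, 5 were called higher and 4 lower in 2D, and 2 and 2 in KPC. Jdp2, a repressor that pairs with Jun proteins, was higher at day 7 (1.98 ± 0.24, adjusted p = 1.81e-07 by edgeR), as was Atf1 (0.82 ± 0.12). Nfe2l2, a factor of the antioxidant response, was lower in KPC (-0.62 ± 0.15, adjusted p = 0.00632 by edgeR, not called when scaled by library size alone), and the small Maf gene Mafk was lower in 2D (-0.64 ± 0.16), at day 7 (-0.85 ± 0.18) and in batch 2 (-0.67 ± 0.19, not called without batch 2 replicate 3, adjusted p = 0.121 by edgeR). Crem (0.86 ± 0.26) and Atf4 (0.62 ± 0.14) were called higher in 2D, and neither was called with 2D replicates 4, 5 and 6 alone (0.24 and 0.16, adjusted p = 0.418 and 0.201 by edgeR).

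Feedback and output genes of ERK, of which 20 of 21 were tested, had 5 called higher and 6 lower in 2D (2 and 6 scaled by library size alone), 2 and 3 in Matrigel, 12 and 3 at day 7, 0 and 4 in KPC and 8 and 2 in batch 2. In that order 25, 10, 60, 0 and 40% were called higher and 30, 15, 15, 20 and 10% lower. The shares of all tested genes are those given with the bZIP genes. At day 7 cyclin D1 (Ccnd1, 1.34 ± 0.14, adjusted p = 2.46e-08 by edgeR), the EGF receptor ligand Areg (1.32 ± 0.16) and the ETS factor Etv4 (1.23 ± 0.26) were higher. Spry4, an inhibitor of the pathway, was lower (-1.40 ± 0.28), as it was in 2D (-1.12 ± 0.24) and Matrigel (-0.97 ± 0.27). In 2D Spry4 was at -1.89 with replicates 1 to 3 alone and -0.84 with 4 to 6 alone. Its relative Spry2 was instead higher in 2D (0.50 ± 0.15). That call was lost by library size scaling and against both batches of KC. Phlda1 was lower in 2D (-0.66 ± 0.10), at day 7 (-0.77 ± 0.12) and in KPC (-0.47 ± 0.14), the last not called in 3 of 14 alternatives, those being scaling by library size alone, KC libraries of both batches and leaving out KPC replicate 2. Of 24 upstream genes (mainly SRF and its cofactors, MAP kinases and the kinases and receptors above them), 2, 3, 8, 3 and 8 were called higher and 10, 0, 6, 3 and 4 lower in the 5 comparisons. These were 8.33, 12.5, 33.3, 12.5 and 33.3% called higher and 41.7, 0, 25, 12.5 and 16.7% lower, beside the same shares of all genes.

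Heat shock genes, all 25 of which were tested, had 10 called higher and 4 lower in 2D (4 and 4 scaled by library size alone), 2 and 2 in Matrigel (0 and 1), 12 and 4 at day 7, 1 and 3 in KPC and 5 and 3 in batch 2 (3 and 4). In that order 40, 8, 48, 4 and 20% were called higher and 16, 8, 16, 12 and 12% lower. The shares of all tested genes are those given with the bZIP genes. The inducible chaperone Hspa1a was lower in 2D (-0.96 ± 0.19, adjusted p = 0.000284 by edgeR), in Matrigel (-0.71 ± 0.22), at day 7 (-1.96 ± 0.25) and in KPC (-1.14 ± 0.27), and its cochaperone Dnajb1 was lower in the same comparisons (-0.62 ± 0.09, -0.69 ± 0.11, -0.40 ± 0.11 and -0.39 ± 0.12). The call of Hspa1a in Matrigel was lost by library size scaling, with the replicate number as a block and without Matrigel replicate 1 or 3 or KC replicate 3 (adjusted p up to 0.205 by edgeR). That of Dnajb1 in KPC was lost by library size scaling, with no filter on low counts and without KC replicate 2 or KPC replicate 1 (up to 0.311). Hspa1b was lower in 2D (-0.93 ± 0.17), at day 7 (-1.26 ± 0.20) and in KPC (-2.09 ± 0.24). Hspe1 was higher in 2D (1.65 ± 0.27) and Hsp90aa1 at day 7 (1.27 ± 0.17). With 2D replicates 1 to 3 alone and 4 to 6 alone, the log2 fold change was 2.28 and 0.53 for Hspe1, -1.66 and -0.67 for Hspa1a and -1.56 and -0.59 for Hspa1b. Hspa1a and Hspa1b are near-identical copies whose reads the counting could split between them, and the part of heat shock or digestion in the members' levels was not tested.

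Of 32 genes known as AP-1 targets, 24 were tested, with 8 called higher and 6 lower in 2D (5 and 9 scaled by library size alone), 5 and 3 in Matrigel, 8 and 7 at day 7, 1 and 7 in KPC and 11 and 6 in batch 2 (6 and 7). In that order 33.3, 20.8, 33.3, 4.17 and 45.8% were called higher and 25, 12.5, 29.2, 29.2 and 25% lower. In 2D this was near the 26.3% and 23.3% of all tested genes, and the other shares of all genes are given with the bZIP genes. The plasminogen activator Plat was higher in 2D (1.12 ± 0.13, adjusted p = 2.53e-07 by edgeR) and at day 7 (1.78 ± 0.14). Fhl1, a LIM domain protein, was lower in 2D (-2.70 ± 0.21), Matrigel (-0.81 ± 0.21), day 7 (-2.92 ± 0.26) and KPC (-3.82 ± 0.27) and higher in batch 2 (1.42 ± 0.19). Against both batches of KC it was at -3.38 in 2D, -1.51 in Matrigel, -3.61 at day 7 and -3.09 in KPC. Without Matrigel replicate 3 it was not called in Matrigel (adjusted p = 0.103 by edgeR).

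**Figure D4:**
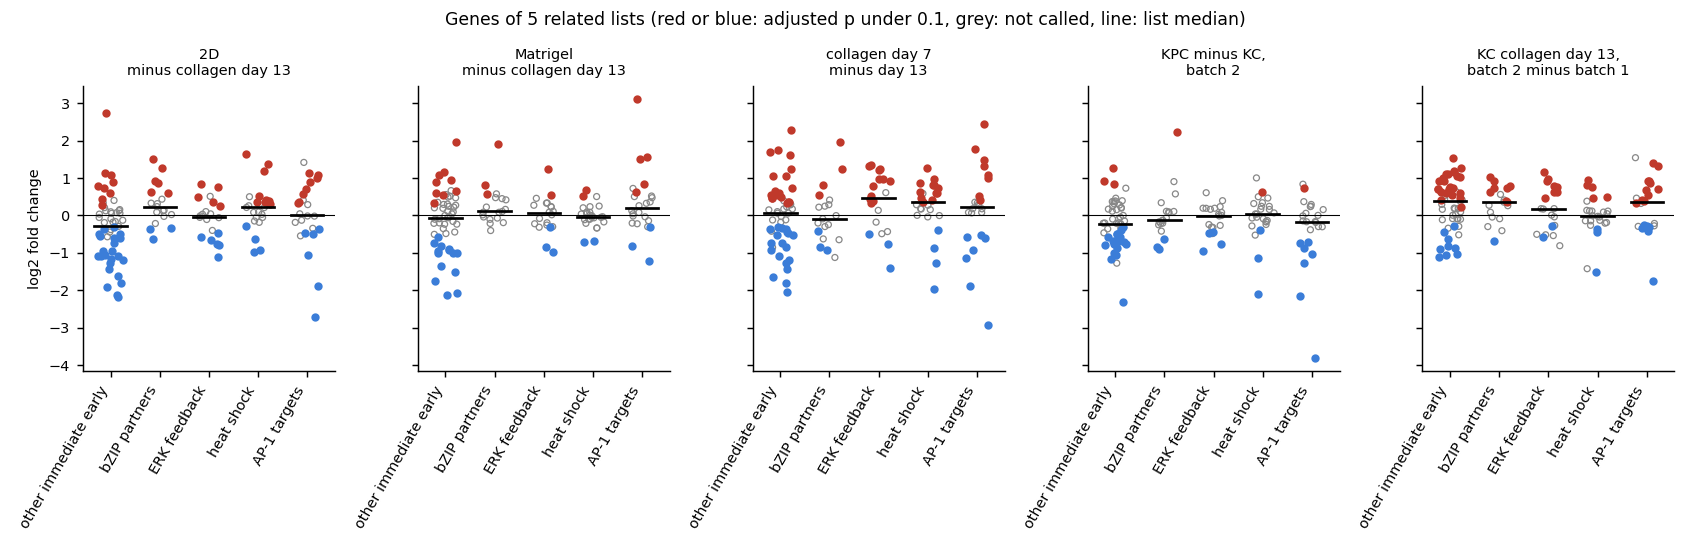
Log2 fold change (vertical axis, edgeR) of each tested gene of 5 lists in the 5 comparisons, the first group minus the second; red and blue points are called at an adjusted p under 0.1, open grey points are not, and lines are list medians. The 53 other immediate early genes tested have 23 called lower and 9 higher in 2D, 20 lower and 3 higher in KPC, and 23 higher and 9 lower in batch 2. Of all tested genes, 23.3% are called lower and 26.3% higher in 2D, 10.4% and 9.57% in KPC, and 18.1% and 19.3% in batch 2.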

How the data were processed

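RNA of 23 libraries was sequenced as poly(A) 3' ends with molecular identifiers. The authors aligned the reads to GRCm38, and the deposited values are raw counts of identifiers per gene, which were used as deposited. The members and gene lists were chosen with earlier results of these data known.

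Genes passing filterByExpr (11144) were fitted in 1 model of all 6 groups with edgeR 4.0.16 in R 4.3.3 (TMM scaling, quasi-likelihood F-test, Benjamini-Hochberg adjustment over all tested genes), with a call at an adjusted p under 0.1. The authors used DESeq2, here an alternative (DESeq2 1.42.0). Each SE is the absolute log2 fold change divided by the square root of its F statistic. Log2 CPM used a prior count of 2. Per list and comparison, up to 3 called genes with the highest and 3 with the lowest fold change, at 20 CPM or more in the higher group, could be named. Alternatives were other scalings, no filter, a threshold of 0.05, the compared groups alone, both batches of KC, a replicate block, Spearman correlation and leaving out libraries. The model was tested on simulated data in which a small set of genes differed, in 2D alone. These data held no split among the 2D libraries, so the test does not cover that split. Same-numbered libraries did not deviate together (r from -0.11 to 0.08), and the main fit pairs no libraries. With 3 to 5 shared numbers per comparison, this cannot exclude that some libraries belong together. Precision is limited by counts of identifiers, and the lowest count of a member in a library was 11 (Fosb), 12 (Atf3), 29 (Fosl2) and at least 56 for the others. Some alleles of the lines and 1 listed gene are not reported here.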

Additional observations from a re-analysis of the deposited data

Results flagged for a closer look

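In groups of 4 to 10 libraries, 20 sets of member values were searched for a library far from the others, and 2 held one; chance gives about 1 in 20. Fosl1 stood at 46.2 CPM in 2D replicate 6 and at 61.7 to 69.4 CPM in the other 2D libraries, a gap of 0.668 of the group's range. Jun stood at 90.3 CPM in replicate 5 of KC collagen at day 13 of batch 1 and at 118 to 129 CPM in the other libraries of that group, a gap of 0.733 of the range.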

How the results depend on the processing

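The direction of each member kept in every alternative run except for Fosl1 in Matrigel (log2 difference from -0.24 to 0.25), Fosb (-0.05 to 0.66) and Jun (-0.46 to 0.31) at day 7, and Jun in KPC, which was 0.091 against the KC libraries of both batches in place of -0.54. Scaling by library size alone moved the median of all genes to -0.20 in 2D, 0.13 in KPC and -0.18 in batch 2. The replicate number as a block left the members' median at -1.23 in 2D and -0.58 in KPC and moved no list count by more than 1.5 times. Same-numbered libraries had deviations with r of -0.11 to 0.08.

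The members' median was -1.73 in 2D without replicates 1 to 3 and -1.04 without replicates 4 to 6, -1.34 in Matrigel against both batches, and in KPC -0.45 by library size and -0.41 against both batches. Counts of called genes moved by more than 1.5 times as follows. By library size alone, heat shock genes were 8 in 2D and 1 in Matrigel, ERK genes 1 and AP-1 targets 5 in KPC. At a threshold of 0.05, heat shock genes in Matrigel and ERK genes in KPC were 2 each and AP-1 targets in batch 2 were 9, and 10 with no filter on low counts. Against both batches of KC, bZIP genes at day 7 were 11, and other immediate early genes 15 and heat shock genes 8 in KPC, the latter 7 with the compared groups alone. In 2D, bZIP genes were 5 without replicates 1 to 3 and ERK genes 7 without replicates 4 to 6, a choice made after the data had been seen. Of the 10 genes most like Fos by deviations, 5 were shared with Spearman's rho and 0 without 2D libraries. The cause of these changes was not tested.

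Leaving out single libraries gave members' medians of -1.43 to -1.21 in 2D, -1.16 to -1.09 in Matrigel, -0.85 to -0.49 at day 7, -0.63 to -0.54 in KPC and 0.64 to 0.72 in batch 2. In Matrigel the ERK count ran from 2 to 6 (2 without Matrigel replicate 2) and the heat shock count from 1 to 4 (1 without Matrigel replicate 1, 2 without Matrigel replicate 2 or KC replicate 3). In KPC the ERK count ran from 2 to 3, with 2 without KC replicate 1 or 2 or KPC replicate 2. In batch 2 the ERK count ran from 6 to 10 (6 without batch 2 replicate 2) and AP-1 targets from 10 to 17 (10 without batch 2 replicate 1 or 2).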
